A study of Homo sapiens with 9 samples.

Results

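The 10 long noncoding RNAs described here are PCGEM1, PCAT1, PCA3, DRAIC, ARLNC1, PART1, SCHLAP1, NEAT1, MALAT1 and GAS5. They were chosen by name and matched by Ensembl identifier, and they make up 10 of the 60880 gene rows in each count table. All 3 groups came from LNCaP, an established androgen-responsive prostate cancer cell line, sampled at 24 h and grown in medium with 10% serum. The control carried the label NT, and no selection drug is listed for it. The knockdown was a single line, KD4, directed at UGT2B28, an enzyme of a family that attaches glucuronic acid to steroids, and was selected with puromycin at 3 µg/mL. In the rescue, KD4OE, UGT2B28 was overexpressed in that same knockdown background under G418 at 1 mg/mL, so every rescue library also carries the knockdown. The listed drug and the line changed together with the handling of UGT2B28 in every comparison, and their parts cannot be told apart. Each group had 3 RNA-seq libraries, with 20300744 to 26459528 reads counted in genes. The labels do not state that replicates were separate cultures, and the spread between them may therefore be technical.

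Long noncoding RNAs are transcribed, and mostly spliced and capped, like messenger RNAs, but they act as RNA. PCGEM1, PCAT1, PCA3, DRAIC, ARLNC1, PART1 and SCHLAP1 are known from prostate tissue or prostate cancer, and several of them respond to androgen. NEAT1 is the architectural RNA of paraspeckles, MALAT1 accumulates in nuclear speckles beside splicing factors, and GAS5 is a spliced host transcript whose introns carry small nucleolar RNAs.

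The libraries were first checked against their labels. UGT2B28 had 25, 4 and 10 counts in control, 17, 8 and 1 in knockdown, and 1124, 1554 and 1857 in rescue. The overexpression was therefore visible and a lower level in knockdown was not detectable at this depth, so "knockdown" is used below as the name on the label. The 6 luminal prostate markers summed to 3400 to 3712 CPM (read counts scaled for library depth) in the control libraries. The sums were 6159 to 6575 in those labelled knockdown and 6435 to 7152 in the rescue. KLK3 gave the largest part, with means of 1428, 3750 and 4407 CPM in control, knockdown and rescue. KRT8 had means of 1012, 1063 and 872 CPM and was not called in knockdown against control, where the other 5 markers were called higher. Markers of basal, neuroendocrine, endothelial and immune cells each summed to at most 5.48 CPM in any library, and the 3 fibroblast markers to 42.5 to 71.8 CPM, nearly all of it COL1A1, with COL1A2 and DCN at a mean of at most 0.014 CPM in any group. The mitochondrial share of gene counts was 4.64% to 5.68% for control libraries, 2.56% to 2.89% for knockdown libraries and 3.19% to 3.86% for rescue libraries, and whether this bears on the noncoding RNAs was not tested beyond leaving those genes out of the scaling. The measurements are of bulk RNA, in which fewer expressing cells and less RNA per cell cannot be told apart.

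RefSeq promoter windows of 300 bases (250 before the annotated gene start and 50 after it, GRCh38.p14) were available for 6 of the 10 genes: PCGEM1, PCA3, DRAIC, PART1, MALAT1 and GAS5. The windows below belong to PCA3 and DRAIC, whose levels differed between groups, to PCGEM1, and, for contrast, to MALAT1. PCGEM1 entered the test only through its rescue libraries, so its calls support no difference. The levels of MALAT1 did not pass the test in any comparison. Capitals mark AGAACA or its reverse complement TGTTCT, the hexamer of which steroid hormone response elements of this class are built, searched on both strands, and TATAAA on the gene strand.
PCGEM1 (chr2:192749595-192749894, plus strand): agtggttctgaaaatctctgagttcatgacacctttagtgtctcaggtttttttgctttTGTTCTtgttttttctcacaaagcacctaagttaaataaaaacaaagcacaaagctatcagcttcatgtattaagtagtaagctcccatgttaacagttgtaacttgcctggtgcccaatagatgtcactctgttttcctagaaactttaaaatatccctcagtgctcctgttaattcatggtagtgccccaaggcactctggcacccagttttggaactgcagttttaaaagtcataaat
PCA3 (chr9:76764186-76764485, plus strand): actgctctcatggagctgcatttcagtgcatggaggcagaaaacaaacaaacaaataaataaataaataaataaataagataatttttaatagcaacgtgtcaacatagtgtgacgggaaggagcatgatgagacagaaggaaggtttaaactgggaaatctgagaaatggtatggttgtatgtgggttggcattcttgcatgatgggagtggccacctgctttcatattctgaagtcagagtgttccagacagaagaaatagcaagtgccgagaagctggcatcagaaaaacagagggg
DRAIC (chr15:69561470-69561769, plus strand): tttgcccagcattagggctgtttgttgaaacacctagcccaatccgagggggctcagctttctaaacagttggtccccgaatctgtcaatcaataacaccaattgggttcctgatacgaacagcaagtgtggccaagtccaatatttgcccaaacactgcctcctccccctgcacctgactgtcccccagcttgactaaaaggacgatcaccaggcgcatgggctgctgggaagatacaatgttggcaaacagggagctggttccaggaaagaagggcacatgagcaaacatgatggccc
MALAT1 (chr11:65498795-65499094, plus strand, the second of 2 windows): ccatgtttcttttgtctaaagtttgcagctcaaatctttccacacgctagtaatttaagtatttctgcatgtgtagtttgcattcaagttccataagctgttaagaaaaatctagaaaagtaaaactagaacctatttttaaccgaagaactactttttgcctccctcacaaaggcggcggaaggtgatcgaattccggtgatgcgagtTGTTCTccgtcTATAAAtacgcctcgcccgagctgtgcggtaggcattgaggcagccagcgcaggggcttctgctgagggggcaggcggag

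The hexamer occurred in 14.8% of all 35116 windows of this length. PCGEM1 held 1 copy, beginning 191 bases before the gene start. The MALAT1 window held 1 copy 41 bases and a TATAAA 30 bases before its start, the latter a sequence found in 7.3% of windows. Neither sequence was present in the windows of PCA3, DRAIC, PART1 or GAS5. The full palindromic element, AGAACA and TGTTCT set 3 bases apart, was in 1 of the 35116 windows and in none of these genes. GC content was 38.0% for PCGEM1, 40.7% for PCA3, 52.0% for DRAIC and 46.0% for the MALAT1 window shown, against a median of 58.7% over all windows. The other MALAT1 window, not shown, had a GC content of 73.7% and held neither the hexamer nor TATAAA. These matches describe the letters only.

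**Figure D1:**
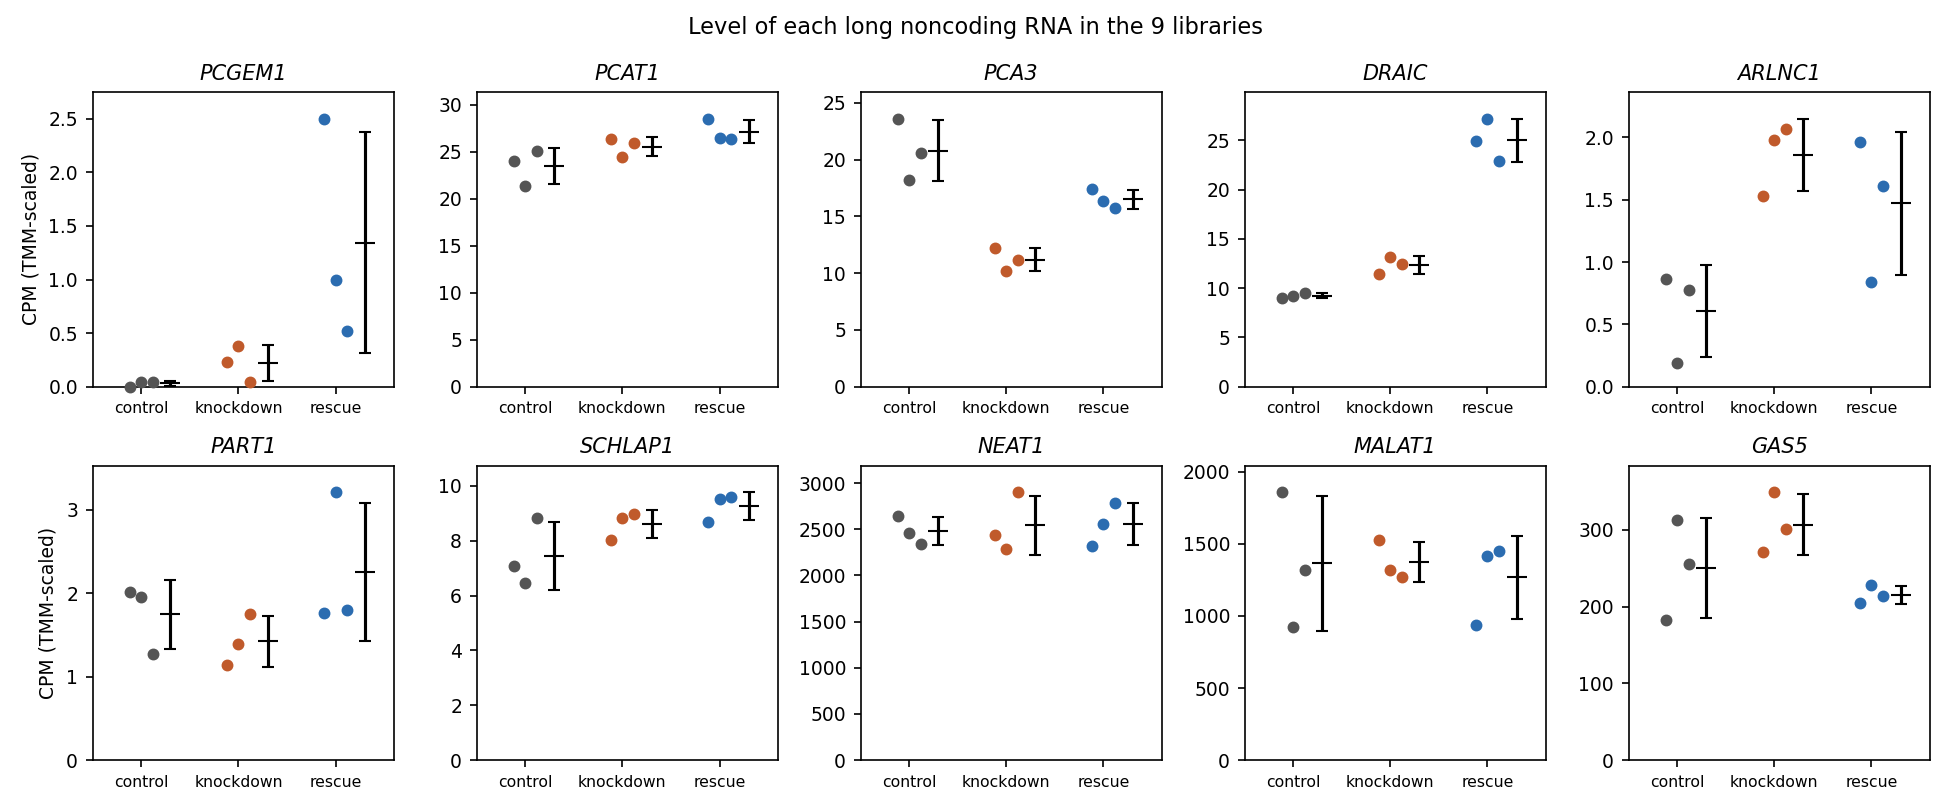
Level of each long noncoding RNA in CPM (TMM-scaled, linear axes from 0) in the 9 libraries; each point is a library, in replicate order from left to right, and the bar is the mean ± SD of 3. DRAIC steps up from control (8.98 to 9.54) to knockdown (11.4 to 13.2) to rescue (22.9 to 27.2), PCA3 is lowest in knockdown, and the points of NEAT1 and MALAT1 overlap between all groups.

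All 10 genes had enough reads to be tested, among 18389 tested genes, with edgeR's quasi-likelihood test and Benjamini-Hochberg adjustment over all of them; a gene was called at an adjusted p under 0.05. In knockdown against control, DRAIC and ARLNC1 were called higher and PCA3 lower, 3 of 10, where 32.1% of all tested genes were called (16.5% higher and 15.6% lower). In rescue against knockdown, PCGEM1, PCA3 and DRAIC were called higher and 0 of 10 lower, against 10.1% of all genes (5.2% higher and 4.88% lower); GAS5, which had the lowest fold change, had an unadjusted p of 0.025, and DESeq2 also called 3 members. In rescue against control, PCGEM1, DRAIC and ARLNC1 were called higher and PCA3 lower, against 37.8% (19% higher and 18.8% lower). PCGEM1 entered the test only through its rescue libraries, so its calls support no difference. The members' share called was near the background in the comparisons with control. The median log2 fold change of the 10 was 0.16, 0.10 and 0.26 in the 3 comparisons, beside 0.01, −0.005 and −0.003 over all tested genes. The comparisons share libraries and are not independent of each other.

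**Figure D2:**
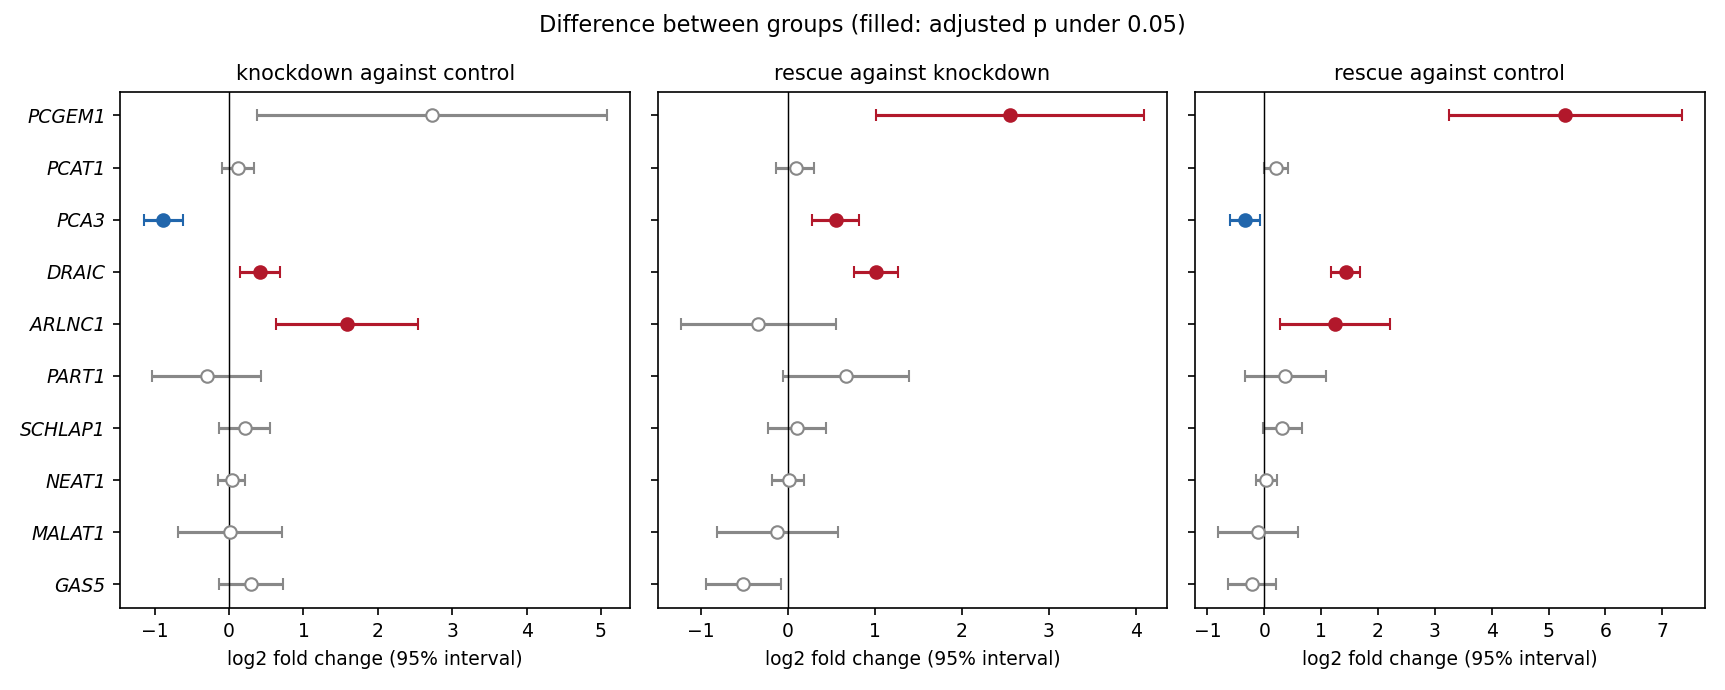
Log2 fold change of the 10 RNAs in each comparison, with 95% intervals; filled points had an adjusted p under 0.05, red higher and blue lower. PCGEM1 has the longest intervals (0.38 to 5.08 for knockdown against control), and those of NEAT1 stay within −0.18 and 0.23 in all 3 panels.

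PCGEM1, an androgen-regulated RNA first described in prostate tumours, was close to absent outside the rescue libraries. Its raw counts were 0, 1 and 1 in control, 6, 9 and 1 in knockdown, and 51, 25 and 14 in rescue. In CPM the rescue libraries stood at 2.50, 1.00 and 0.524, the knockdown libraries at 0.229, 0.379 and 0.046, and the control libraries at 0, 0.0464 and 0.0454. Every rescue library was above every other library, and the rescue values themselves spread widely. A count of 0 in control replicate 1 allows up to 0.112 CPM (3 counts). PCGEM1 passed the filter on low counts only through the rescue group: 3 of 3 rescue libraries and 0 of the 6 others exceeded the filter's 0.4 CPM.

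Since PCGEM1 entered the test only through rescue, its differences are given as a description. Rescue exceeded knockdown by 2.56 on the log2 scale (SE 0.75, adjusted p = 0.027), a ratio of summed counts, scaled for depth, of 5.6 with a 95% counting interval of 3.27 to 10.2. Against control the summed ratio was 43.9, but with only 2 control counts its interval ran from 11.8 to 368 (adjusted p = 1e-04). Knockdown against control gave a ratio of 7.84 (1.84 to 70.3) and was not called (adjusted p = 0.069). The adjusted p of rescue against knockdown missed the threshold without rescue replicate 1 (log2 fold change 1.768, adjusted p = 0.32), rescue replicate 2 (2.735, 0.053), knockdown replicate 1 (2.59, 0.082) or knockdown replicate 3 (2.117, 0.13), within a range of 0.0061 to 0.32 over the alternatives. Without knockdown replicate 3, knockdown against control was called (log2 fold change 3.18, adjusted p = 0.04, range 0.04 to 0.25). The nearest gene before PCGEM1 on chromosome 2, TMEFF2, a transmembrane protein of prostate and brain, was at 24 ± 3.29, 28 ± 0.977 and 34 ± 4.48 CPM (SD, n = 3). It was higher in rescue than in control by 0.50 on the log2 scale (edgeR adjusted p = 0.00086). TMEFF2 was not called in knockdown against control (0.22, adjusted p = 0.15) or in rescue against knockdown (0.28, adjusted p = 0.12). SLC39A10, the nearest coding gene after PCGEM1, was called in no comparison.

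DRAIC rose at each step of the design. Its levels in control were 8.98, 9.23 and 9.54 CPM, in knockdown 11.4, 13.2 and 12.5 CPM, and in rescue 24.9, 27.2 and 22.9 CPM. The 3 groups did not overlap, which was so for 42.5% of all genes in knockdown against control, 27.5% in rescue against knockdown and 48.1% in rescue against control. From control to knockdown it rose by 0.42 on the log2 scale (SE 0.13, adjusted p = 0.014), and from knockdown to rescue by 1.01 (SE 0.12, adjusted p = 1.5e-06), which put it 2.7-fold above control in rescue (log2 fold change 1.43, SE 0.13, adjusted p = 3.5e-10). The first of these was lost without knockdown replicate 2 (adjusted p = 0.059; range over the alternatives 0.01 to 0.059), while the other two held in each of 15 alternatives.

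DRAIC is a long intergenic RNA known as repressed by androgen in prostate cells and linked to slower invasion. The deposited row for DRAIC on chromosome 15 covers a locus that RefSeq divides, and PCAT29 and LINC00593, which lie inside it, had no row of their own, so reads from either may be included. The nearest coding gene after it, TLE3, a transcriptional corepressor named here after its values were seen, was at 232 ± 25.3, 279 ± 12.4 and 310 ± 13 CPM. TLE3 was higher in knockdown than in control by 0.26 on the log2 scale (edgeR adjusted p = 0.0092) and was not called between knockdown and rescue (0.15, adjusted p = 0.23). RPLP1, the nearest coding gene before DRAIC, was called in no comparison.

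PCA3, a prostate-specific RNA measured in urine as a cancer marker, was the only one of the 10 called lower against control. Control libraries held 23.6, 18.2 and 20.6 CPM, knockdown libraries 12.2, 10.2 and 11.2 CPM, and rescue libraries 17.4, 16.4 and 15.7 CPM. Rescue lay between the other groups and overlapped neither. PCA3 fell by 0.89 on the log2 scale from control to knockdown (SE 0.13, adjusted p = 3.9e-06) and rose by 0.55 from knockdown to rescue (SE 0.13, adjusted p = 0.0055), both in each of 15 alternatives. Its remaining distance from control in rescue, −0.34 (SE 0.13, adjusted p = 0.037), was lost in 6 of 15 alternatives: without a filter on low counts and without control replicate 1, control replicate 3 or any one of the rescue libraries (adjusted p from 0.018 to 0.21 over the alternatives, highest without control replicate 1).

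The PCA3 gene lies on chromosome 9 within PRUNE2 and on the opposite strand, with 1060 exon bases, 7.48% of its own, shared with PRUNE2 exons in GENCODE v29. PRUNE2, whose RNA is reported to pair with PCA3, gave 180, 141 and 156 CPM in control, 111, 87 and 89.7 in knockdown, and 140, 130 and 137 in rescue. It fell by 0.72 on the log2 scale in knockdown (SE 0.09, adjusted p = 5.7e-07) and rose by 0.50 in rescue (SE 0.09, adjusted p = 0.00049), the directions of PCA3. Over the 9 libraries PRUNE2 was among the 2 genes whose log2 CPM was most like that of PCA3 (Pearson r 0.98), after KDM6A (0.983). The strand setting of the counting is not given in the sources used here, and without it reads of PCA3 and PRUNE2 in the shared exons cannot be told apart.

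**Figure D3:**
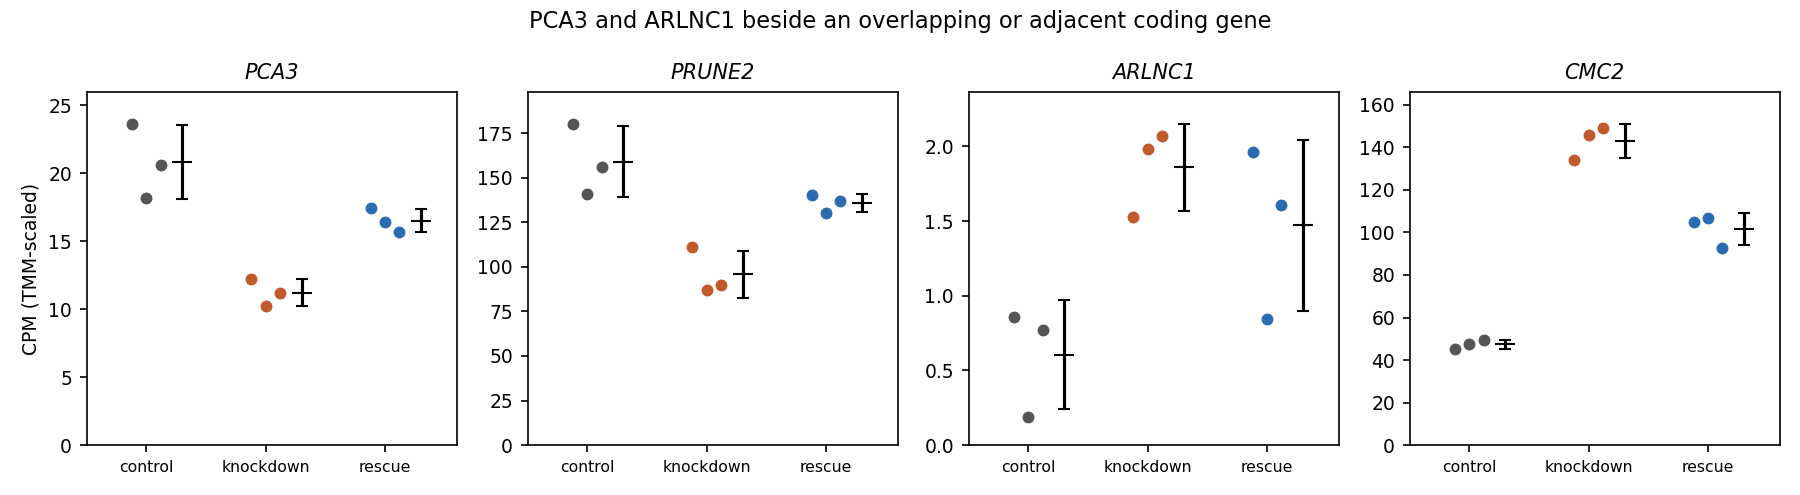
Levels of PCA3 and of PRUNE2, the gene on the opposite strand that contains it, and of ARLNC1 and its neighbour CMC2, in CPM (linear axes from 0); points are libraries and bars the mean ± SD of 3. PCA3 and PRUNE2 are both lowest in knockdown, and CMC2 separates all 3 groups where ARLNC1 overlaps between knockdown and rescue.

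ARLNC1, an androgen-induced RNA, was scarce. Its counts were 23, 4 and 17 in control, 40, 47 and 45 in knockdown, and 40, 21 and 43 in rescue. Scaled for depth these were 0.861, 0.186 and 0.772 CPM, then 1.53, 1.98 and 2.07 CPM, then 1.96, 0.843 and 1.61 CPM. Knockdown libraries all exceeded the control ones, whereas rescue replicate 2 fell below control replicate 1. One control library, replicate 2, was under the filter's 0.4 CPM. ARLNC1 rose by 1.59 on the log2 scale in knockdown against control (SE 0.47, adjusted p = 0.0097) and by 1.25 in rescue against control (SE 0.47, adjusted p = 0.038), with no call between knockdown and rescue (−0.34, 95% interval −1.23 to 0.55, adjusted p = 0.72). Without control replicate 2 the adjusted p was 0.052 for knockdown and 0.17 for rescue against control. The latter call was also lost with only the 6 libraries compared (0.065) and without rescue replicate 1 (0.15), rescue replicate 3 (0.095) or knockdown replicate 3 (0.05); the ranges over the alternatives were 0.0041 to 0.052 and 0.017 to 0.17.

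ARLNC1 shares no exon base with another annotated gene. Its 2 neighbours on chromosome 16 were both higher in knockdown. CMC2, which encodes a factor of mitochondrial cytochrome oxidase assembly, was at 47.4 ± 2.05 CPM in control and at 143 ± 7.89 in knockdown (1.59 on the log2 scale, SE 0.08, adjusted p = 2e-15) and 102 ± 7.65 in rescue (−0.49 against knockdown, adjusted p = 5.5e-05). CDYL2, a chromodomain protein gene, went from 43.6 ± 1.77 to 66 ± 7.69 CPM (0.60, edgeR adjusted p = 1.5e-05) and stood at 57 ± 5.68 in rescue (−0.21, adjusted p = 0.16). Of the 10 prostate lineage genes examined, 8 were called higher and 0 lower in knockdown against control (16.5% and 15.6% of all tested genes). The lineage genes had a median log2 fold change of 1.19. KLK2, a secreted kallikrein under androgen control, showed the smallest adjusted p among them (125 ± 12.4 to 1698 ± 82.9 CPM, log2 fold change 3.76, adjusted p = 1.2e-22). In rescue against knockdown 4 were higher, SLC45A3 the most clearly (100 ± 8.45 to 195 ± 8.47 CPM, 0.96, adjusted p = 6.8e-10), and KLK2 was lower (−0.35, adjusted p = 0.0047). Over all tested genes 5.2% were called higher and 4.88% lower in that comparison.

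PCAT1, PART1 and SCHLAP1 passed the test in no comparison. PCAT1, an RNA linked to DNA repair and MYC in prostate cancer, was at 24, 21.4 and 25.1 CPM in control, 26.3, 24.4 and 25.9 in knockdown, and 28.5, 26.5 and 26.4 in rescue. Each rescue library was above all others, yet the largest difference, rescue against control, was 0.21 on the log2 scale (95% interval −0.01 to 0.42, edgeR adjusted p = 0.13). The deposited row for PCAT1 on chromosome 8 spans several loci that RefSeq names separately, among them PCAT2, CCAT1 and CASC21, which had no row of their own, and 11.94% of its exon bases are shared with other genes.

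SCHLAP1, an RNA of aggressive prostate cancer reported to counter the SWI/SNF chromatin remodelling complex, was at 7.07, 6.45 and 8.81 CPM in control, 8.01, 8.83 and 8.97 in knockdown, and 8.68, 9.51 and 9.59 in rescue. These groups overlapped in part, and the differences from control were 0.21 (95% interval −0.13 to 0.55) in knockdown and 0.32 (−0.02 to 0.66) in rescue. UBE2E3, the coding gene after SCHLAP1 on chromosome 2, named here after its values were seen, was higher in both. Its levels were 24 ± 1.37, 32.7 ± 0.522 and 34.3 ± 1.5 CPM (edgeR adjusted p = 0.00082 and 0.00012 against control). CWC22, the coding gene before SCHLAP1, was called in no comparison.

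PART1, an androgen-regulated prostate transcript, had 28 to 54 counts per control library, 30 to 38 per knockdown library and 36 to 80 per rescue library. Its levels were 2.02, 1.95 and 1.27 CPM, then 1.14, 1.39 and 1.75, then 1.76, 3.21 and 1.80. Rescue lay just above knockdown without overlap, by 0.67 on the log2 scale (95% interval −0.05 to 1.39, edgeR adjusted p = 0.26). PDE4D, the phosphodiesterase gene that overlaps PART1 on the opposite strand of chromosome 5, was at 7.71 ± 1.56, 4.05 ± 1.2 and 2.87 ± 1.08 CPM in control, knockdown and rescue, with log2 fold changes against control of −0.93 in knockdown (adjusted p = 0.0048) and −1.45 in rescue (adjusted p = 5.5e-05). PDE4D exons share 227 bases, 2.33%, with those of PART1.

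NEAT1 was the member with the most reads, 47391 to 74191 per library. Its levels were 2641, 2457 and 2344 CPM in control, 2440, 2290 and 2900 in knockdown, and 2323, 2557 and 2779 in rescue. The groups overlapped throughout, and the log2 fold changes of 0.04, 0.01 and 0.04 had 95% intervals within −0.18 and 0.23. NEAT1 is thus the member for which the data bound the differences most tightly.

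The RNAs of the proteins that build paraspeckles on NEAT1 moved in both directions. Of 14 tested, 4 were called higher and 3 lower in knockdown against control. Rescue gave 2 and 0 against knockdown and 5 and 4 against control. The medians were −0.01, 0.06 and 0.01 on the log2 scale. Over all tested genes the shares called were 32.1%, 10.1% and 37.8% in the same order. The RNA of PSPC1, a core paraspeckle protein, rose at both steps, from 27.6 ± 2.49 to 40.2 ± 2.06 to 57.3 ± 2.99 CPM (0.54 and 0.51, edgeR adjusted p = 5.8e-05 and 0.00041). NUDT21 and CPSF6, partners in the cleavage factor that sets poly(A) sites, went in opposite directions in knockdown: NUDT21 from 139 ± 15.1 to 176 ± 2.43 CPM (adjusted p = 0.00092) and CPSF6 from 60.7 ± 0.771 to 47.2 ± 5.47 CPM (adjusted p = 0.0035). NONO, which binds NEAT1 directly, was called lower in rescue against control and in neither other comparison (648 ± 49.7 to 542 ± 8.04 CPM, −0.26, edgeR adjusted p = 0.0069).

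MALAT1 had 19133 to 49645 counts per library and varied more between replicates than between groups. Control libraries were at 1858, 923 and 1317 CPM, knockdown libraries at 1529, 1321 and 1271 CPM, and rescue libraries at 938, 1413 and 1454 CPM. The range within control alone spanned that of both other groups. The differences were 0.01, −0.12 and −0.11 on the log2 scale, with SE 0.29 and 95% intervals between −0.81 and 0.71. The mean coefficient of variation within groups was 22.3%, higher than that of nearly all of the 1000 tested genes nearest in level (percentile 100), against 9.16% for NEAT1 (percentile 82.6). Both RNAs lie side by side on chromosome 11, and their count ratio, MALAT1 to NEAT1, ran from 0.376 in control replicate 2 to 0.704 in control replicate 1. FRMD8, the nearest gene before NEAT1 and a partner of the iRhom proteins, was lower in knockdown (36.4 ± 4.61 to 26.8 ± 3.9 CPM, −0.44, edgeR adjusted p = 0.0041).

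Among 16 genes of nuclear speckle and splicing proteins, 7 were called higher and 3 lower in knockdown against control. Between rescue and knockdown 0 were called in either direction, and rescue against control gave 6 higher and 3 lower. Over all tested genes the shares called were 32.1% in knockdown against control, 10.1% in rescue against knockdown and 37.8% in rescue against control. SRSF3, a splicing factor of the SR family, rose from 120 ± 10.6 to 229 ± 19.6 CPM (0.93, edgeR adjusted p = 3.1e-10) and SRSF1, another, from 22.1 ± 1.13 to 31.8 ± 4.65 CPM (0.53, adjusted p = 0.00045). The RNA of SRRM1, a speckle scaffold protein, fell from 283 ± 10.4 to 238 ± 5.34 CPM (−0.25, adjusted p = 0.007). All these values are of RNA, and protein was not measured. Of 14 tested genes for decay and processing of nuclear RNA, DICER1, the nuclease that matures microRNAs, was the 1 gene called in knockdown against control (88.5 ± 3.26 to 70 ± 3.21 CPM, −0.34, adjusted p = 0.0029). In rescue against control 3 of the 14 were called lower and 0 higher, beside the same shares over all tested genes.

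GAS5 stood highest in knockdown and lowest in rescue without passing the test. Its levels were 183, 313 and 256 CPM in control, 271, 349 and 301 in knockdown, and 205, 228 and 214 in rescue. Control spanned most of the range, and every rescue library was below every knockdown library. The rescue-to-knockdown difference was −0.51 on the log2 scale (SE 0.18, 95% interval −0.94 to −0.08, adjusted p = 0.14), and that of knockdown from control 0.29 (SE 0.18, −0.13 to 0.72, adjusted p = 0.28). GAS5 was called lower in rescue than knockdown in 5 of the 15 alternatives, among them the fits without control replicate 1 or 2. Control replicate 1 had the lowest GAS5 level and the highest MALAT1 level of the 9 libraries, 50.71% of its reads in no gene and 5.68% of its gene counts mitochondrial, the highest shares of the set. Without that library the rescue-to-knockdown difference of GAS5 was called (adjusted p = 9.4e-06, range over the alternatives 9.4e-06 to 0.36) as was its difference between rescue and control (log2 fold change −0.398, adjusted p = 0.00035, range 0.00035 to 0.91). Without control replicate 2 instead, it was called higher in knockdown than in control (0.486, adjusted p = 0.0037, range 0.0036 to 0.58). The part of read composition in these values was not tested.

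The transcripts most akin to GAS5 in kind are the other hosts of small nucleolar RNAs, spliced RNAs that are turned over by nonsense-mediated decay and that in many cases begin with a terminal oligopyrimidine tract, a C followed by pyrimidines at the cap, which ties them to the translation machinery. The first 30 bases are shown for GAS5 and, from the RefSeq start, for other hosts. These are the 6 of 8 hosts called higher in knockdown that had a start in the table. Capitals mark a C followed by at least 4 pyrimidines. For GAS5, transcript GAS5-210 of GENCODE v29 was taken from among those that have such a start. The RefSeq start of GAS5, the kind of start used for the other hosts, does not have it.
GAS5: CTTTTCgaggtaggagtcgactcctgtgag
SNHG1: ctcatttttctactgctcgtggtaagtggc
SNHG3: gattctctaactgcgcatgcttctgcgcac
SNHG8: cacattcgggaagcgtcgggattaggtgaa
SNHG12: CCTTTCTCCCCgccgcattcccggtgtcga
SNHG17: agtccttcgccgtccctcgccgtccttcgc
ZFAS1: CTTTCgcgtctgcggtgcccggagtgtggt

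Such a start was annotated for 6 of 29 GAS5 transcripts and, by RefSeq, for 4 of the 13 other hosts with a start in the table (SNHG5, SNHG12, SNHG19 and ZFAS1), against 4.07% of all windows; of the 6 called hosts shown, SNHG12 and ZFAS1 have it. Of 16 other hosts tested, 8 were called higher and 0 lower in knockdown against control, with a median of 0.44 on the log2 scale. In rescue against knockdown 3 were called lower and 0 higher, with a median of −0.28. Over all tested genes 16.5% were called higher and 15.6% lower in knockdown against control. For rescue against knockdown these shares were 5.2% and 4.88%. SNHG1 had 187, 237 and 234 CPM in control, 390, 532 and 428 in knockdown, and 295, 317 and 341 in rescue. Its groups were apart at every step, by 1.04 (SE 0.11, adjusted p = 3.3e-07) and then −0.50 (adjusted p = 0.0039) on the log2 scale. SNHG3 went from 42.8 ± 2.57 to 97.1 ± 10.8 to 67.4 ± 6.38 CPM (1.18 and −0.53, edgeR adjusted p = 3.8e-11 and 0.00021). SNHG12 was 13.6 ± 2.53, 28.9 ± 3.61 and 15.2 ± 2.4 CPM (1.09 and −0.92, edgeR adjusted p = 5.6e-07 and 3.6e-05). ZFAS1 was higher in knockdown (114 ± 30.4 to 182 ± 22.5 CPM, 0.68, edgeR adjusted p = 0.036), whereas SNHG5 and SNHG19, which share the pyrimidine start, were not called (0.24 and 0.06, adjusted p = 0.25 and 0.93). None of the 10 listed small nucleolar RNAs of the GAS5 introns had a row placed there (rows named SNORD79 and SNORD81 lie elsewhere in the genome), so the processed products are not analysed here.

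**Figure D4:**
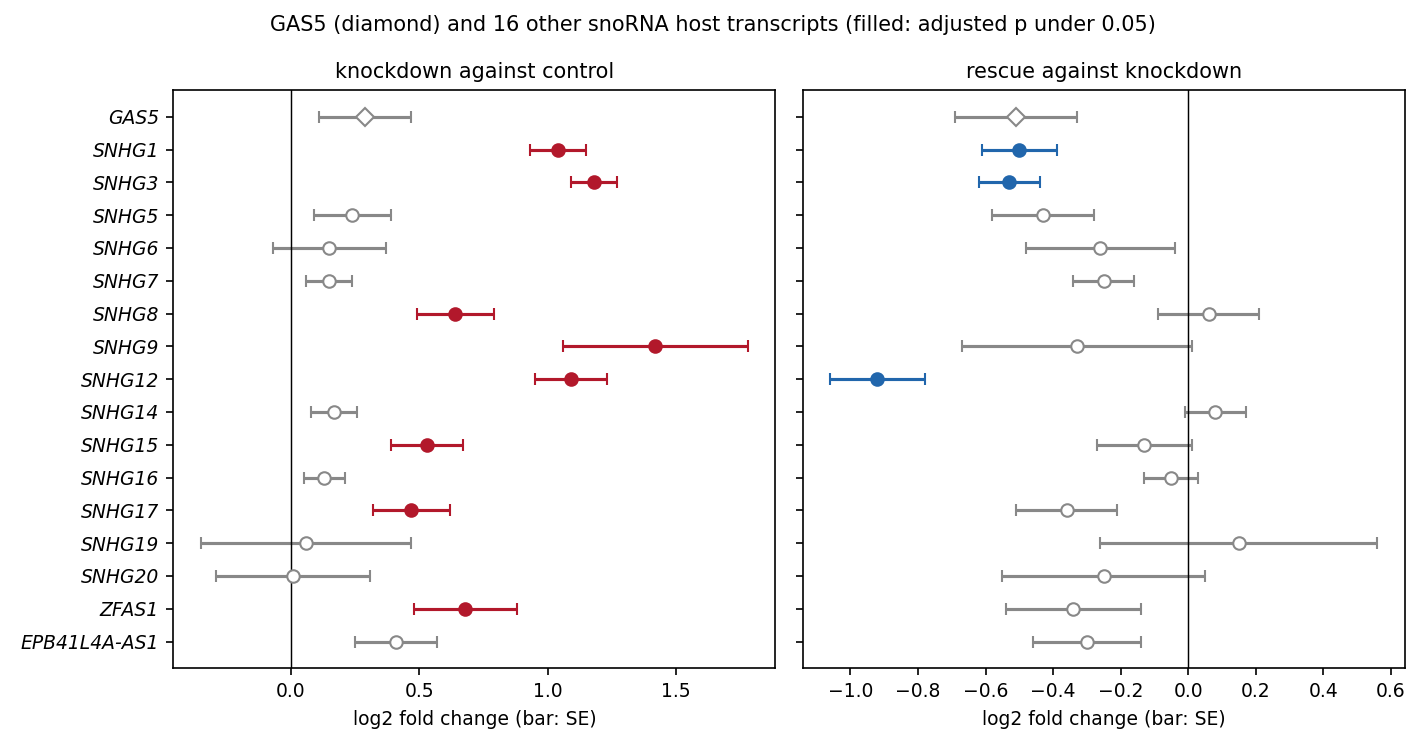
Log2 fold change with its SE for GAS5 (diamond) and 16 other host transcripts of small nucleolar RNAs, in knockdown against control (left) and rescue against knockdown (right); filled points had an adjusted p under 0.05. In the left panel 8 hosts are called higher, and in the right panel SNHG1, SNHG3 and SNHG12 are called lower, while GAS5 is not called in either.

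ZBTB37 and GAS5-AS1, which overlap GAS5 on the opposite strand, were called in no comparison. Over the 9 libraries the genes most like GAS5 in log2 CPM were PA2G4 (Pearson r 0.974) and SEC11A (0.967).

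Other noncoding RNAs named in prostate cancer gave a mixed picture: 7 of 15 were tested, and in knockdown against control 2 were higher and 2 lower. Over all tested genes 16.5% were called higher and 15.6% lower in that comparison. SOCS2-AS1, an antisense RNA reported as androgen-induced, was at 1.27 ± 0.2, 4.52 ± 0.269 and 2.18 ± 0.166 CPM (1.82 and then −1.06, edgeR adjusted p = 7.3e-06 and 0.0084). TRPM2-AS was 18.6 ± 2.53, 26 ± 4.06 and 15.2 ± 1.81 CPM (0.48 and −0.77, adjusted p = 0.0049 and 0.00018). CTBP1-AS, antisense to a corepressor gene, fell from 117 ± 1.98 to 92.6 ± 5.18 CPM in knockdown (−0.34, adjusted p = 0.00072), and HOTAIRM1, from the HOXA cluster, from 2.24 ± 0.739 to 1.05 ± 0.289 CPM (−1.10, adjusted p = 0.036). Of 9 tested among 14 other well-known noncoding RNAs, 1 was higher and 3 lower in knockdown. CYTOR, a cytoplasmic RNA linked to growth, fell from 4.88 ± 0.532 to 0.579 ± 0.348 CPM (−3.04, adjusted p = 3.3e-07) and was at 0.469 ± 0.048 in rescue. NORAD, which sequesters Pumilio proteins, fell from 579 ± 19.5 to 457 ± 26.2 CPM (−0.34, adjusted p = 0.00045) and rose to 583 ± 2.08 in rescue (0.35, adjusted p = 0.0013).

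To compare levels between the 10 genes, CPM was divided by the length of the merged GENCODE v29 exons in kilobases. In control the order was MALAT1 (155 ± 53.2 CPM per kb), NEAT1 (109 ± 6.58), GAS5 (69.1 ± 17.9), SCHLAP1 (5.18 ± 0.852), PCA3 (1.47 ± 0.191), PCAT1 (1.39 ± 0.112), DRAIC (0.501 ± 0.015), ARLNC1 (0.239 ± 0.145), PART1 (0.179 ± 0.0424) and PCGEM1 (0.0179 ± 0.0155). Neighbours in this order whose libraries overlapped were MALAT1 and NEAT1, PCA3 and PCAT1, and ARLNC1 and PART1. In rescue DRAIC (1.35 ± 0.115 CPM per kb) stood above PCA3 (1.16 ± 0.0618) with no overlap, and PCGEM1 (0.784 ± 0.602) stood above ARLNC1 (0.58 ± 0.225) and PART1 (0.231 ± 0.0846), with libraries that overlapped those of both. The merged exons of DRAIC (18461 bases), PCAT1 (16848) and PCA3 (14174) are long beside that of SCHLAP1 (1436), which lowers the level per kb wherever a cell uses only some of the annotated exons.

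**Figure D5:**
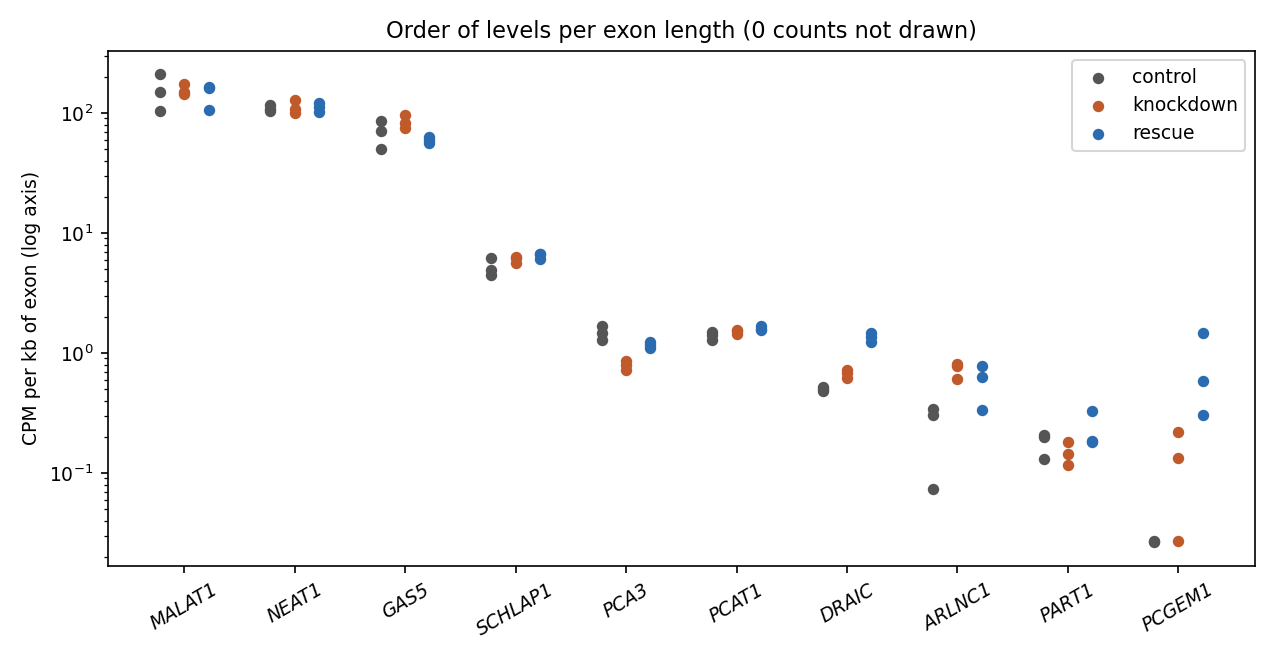
Level per kilobase of merged exon (log axis) of the 10 RNAs, ordered by their control mean; each point is a library, coloured by group, and a library with 0 counts (1 control library of PCGEM1) is not drawn. MALAT1, NEAT1 and GAS5 lie above 50 CPM per kb in every library, and the other RNAs lie below 7.

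The patterns over the 9 libraries differed among the 10 genes, and they are given as descriptions, since the points share libraries and depth. DRAIC was most like SVIP (Pearson r of log2 CPM 0.989) and MIMT1 (0.988), PCGEM1 like SNX4 (0.974) and NUCB2 (0.969), and ARLNC1 like C16orf86 (0.985) and ZIC5 (0.967). PCAT1 was most like ANXA6 (0.97), PART1 like LCAT (0.94), SCHLAP1 like GPR26 (0.956), NEAT1 like ABHD8 (0.92) and MALAT1 like BMS1P1 (0.949). Between members, PCGEM1 and DRAIC had an r of 0.91, while that of their deviations from the group means was 0.31.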

How the data were processed

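The deposited tables hold raw read counts per gene, 1 table per library, made by the authors. The tools named in the submitters' processing notes are HTSeq, HISAT2, cutadapt and FastQC, with the hg19 build. Tool versions, library kit, any poly(A) selection and strand setting: not given in the sources used here. Reads in no gene (48.83% to 50.71%), ambiguous (2.26% to 2.67%) and not uniquely aligned (5.26% to 7.62%) were left out of library sizes.

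The counts were modelled with edgeR 4.0.16 under R 4.3.3: filterByExpr with a minimum count of 10 (18389 genes kept), TMM scaling, and 1 robust quasi-likelihood fit to the 9 libraries, 1 mean for each group, leaving 6 residual degrees of freedom. The 3 contrasts were tested with glmQLFTest, and p-values were adjusted by Benjamini-Hochberg over all tested genes. Every adjusted p in the report comes from this test unless another tool is named. The SE was worked back from the test, as |log2 fold change| divided by the root of F. Levels are CPM on TMM-scaled library sizes, as mean ± SD (n = 3). Ratios of summed counts carry exact 95% intervals, and these and the floor of 3 counts cover counting error only.

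The members and lists were chosen with earlier results of these data known. The genes named are the 10 members, up to 4 genes per list and contrast with the smallest adjusted p, overlapping and nearest genes, and for each member the 2 genes of highest Pearson r of log2 CPM (prior count 2). Symbols, overlaps and exon lengths came from GENCODE v29 and RefSeq on GRCh38, while the counts use hg19; 91.6% of identifier versions equal those of v29. Promoter windows are RefSeq's, on GRCh38.p14. Alternatives were another scaling, DESeq2 1.42.0, no filter, a replicate block, 6 libraries per contrast, library sizes without mitochondrial genes, MALAT1 and NEAT1, and leaving out each library. Some genes that this rule takes are not reported here.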

Additional observations from a re-analysis of the deposited data

How the results depend on the processing

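Over 15 alternatives, 4 calls held in each, PCGEM1 aside: PCA3 in both comparisons with knockdown, and DRAIC in both comparisons with rescue. PCGEM1 was also called in each for rescue against control, though it entered the test only through its rescue libraries. With 6 libraries per contrast PCGEM1 gave no value for knockdown against control, since it no longer passed the filter. Leaving out 1 library at a time, members called ranged from 2 to 4 in each comparison (2 in rescue against control without rescue replicate 1 or 3), and all genes called from 4858 to 5788 (knockdown against control), 1196 (without rescue replicate 1) to 2364 (rescue against knockdown) and 5809 to 6995 (rescue against control). Only NEAT1 and MALAT1, never called, changed sign, and only when a library was left out; the cause was not tested. Over the 9 fits without 1 library, MALAT1 ranged from −0.208 (control replicate 2) to 0.291 in knockdown against control, from −0.221 to 0.061 (rescue replicate 1) in rescue against knockdown and from −0.324 to 0.179 (control replicate 1) in rescue against control, on the log2 scale. NEAT1 ranged from −0.067 (knockdown replicate 3) to 0.107, from −0.061 (knockdown replicate 2) to 0.109, and from −0.021 (rescue replicate 3) to 0.106. Over all tested genes, same-numbered libraries did not deviate together (correlations of −0.04 to 0.08). Such a correlation cannot tell whether single genes share a replicate effect. GAS5 was lowest in replicate 1 and highest in replicate 2 of every group, and the cause was not tested. With the replicate block 6348, 2319 and 7363 genes and 4 members per comparison were called. GAS5 then passed in knockdown against control (0.312, edgeR adjusted p = 0.0036) and in rescue against knockdown (−0.499, adjusted p = 0.00011). Depth limits PCGEM1, ARLNC1 and PART1, with at most 80 counts in any library.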

Other observations

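MALAT1 ranged from 923 to 1858 CPM among the control libraries, and its level was set beside 5 measures of each library (gene counts, shares of reads in no gene, ambiguous or not uniquely aligned, and mitochondrial share), as were NEAT1 and GAS5, 15 relations in all, chosen after seeing the data. The log2 CPM of MALAT1 followed the number of gene counts over the 9 libraries (Pearson r = 0.83, exact permutation p = 0.00096, adjusted p = 0.014; Spearman rho = 0.92, exact p = 0.0013, adjusted p = 0.0098), and r was 0.67 without the 2 libraries farthest from the median. It also followed the share of reads that did not align uniquely (rho = 0.92, exact permutation p = 0.0013, adjusted p = 0.0098; r = 0.75, exact p = 0.022, adjusted p = 0.12; r = 0.86 without the 2 farthest). The 2 libraries with the lowest MALAT1 level, control replicate 2 (923 CPM) and rescue replicate 1 (938 CPM), had the lowest non-unique shares, 5.26% and 5.57%, and the lowest gene counts, 21483664 and 20300744. NEAT1 did not pass in any of its relations, the closest being with the share of reads in no gene (rho = 0.80, exact p = 0.014, adjusted p = 0.069; r = 0.74, exact p = 0.024, adjusted p = 0.12). GAS5 passed in none of these (smallest adjusted p = 0.26). With the group means removed and libraries permuted within groups (216 exact permutations, which can give no p under 0.0046), MALAT1 still followed gene counts (r = 0.86, exact p = 0.0046, adjusted p = 0.046) and the non-unique share (r = 0.77, exact p = 0.0093, adjusted p = 0.046), and GAS5 followed the ambiguous share (r = 0.92, exact p = 0.0093, adjusted p = 0.046). That relation of GAS5 did not pass over the 9 libraries without this step (r = 0.61, exact p = 0.071, adjusted p = 0.26) and had r = −0.39 there without the 2 farthest libraries. NEAT1 and the share of reads in no gene did not pass within groups (r = 0.87, exact p = 0.023, adjusted p = 0.087). The tests are two-sided.

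The deviations of GAS5 from its group means ran against those of PCA3 (r = −0.94), MALAT1 (r = −0.69), ARLNC1 (r = −0.65) and PCAT1 (r = −0.63) over the 9 libraries. With DRAIC the r was 0.46. Among all pairs of members the most extreme r was −0.96, between NEAT1 and PCGEM1, which had few counts. These pairs are picked by their values from all pairs of members and given as a description without a test.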
